A study of Mus musculus with 8 samples.

Results

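The genes examined were 10 genes of the vascular endothelial growth factor (VEGF) axis and the endothelium, taken by gene symbol from the 27179 genes measured in mouse tumors: the ligands Vegfa, Vegfb and Vegfc, the VEGF receptors Flt1, Kdr and Flt4, the endothelial junction genes Pecam1 and Cdh5, and the angiopoietin receptor and ligand Tek and Angpt2. RNA of 8 subcutaneous tumors was sequenced, 4 grown from cxC26 scr cells and 4 from cxC26 IL6KOs1 cells. Both lines derive from cachectic C26, a mouse colon carcinoma whose growth makes the host lose body weight, and both were made with CRISPR/Cas9. The cxC26 scr cells carry a scrambled guide and were the control, whereas the cxC26 IL6KOs1 cells carry guides against Il6 and are subclone 1, grown from a single cell. All hosts were adult male CD2F1 mice with their own Il6 intact, and tumors were taken once cachexia had developed. The comparison therefore asks how vascular genes differed between tumors with and without tumor-cell IL-6, with 1 clone on the knockout side, so that the knockout and the clone cannot be told apart. In the study's flow cytometry of CD2F1 tumors the knockout clone was implanted at a higher cell number and reached cachexia later than the control. Cell number and day were not given for the sequenced tumors in the sources used here, and their part in the results was not tested.

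VEGF-A drives the growth and permeability of blood vessels mainly through VEGFR2, the product of Kdr, whereas VEGFR1, the product of Flt1, binds VEGF-A tightly with weak signalling and acts in large part as a decoy, also as a soluble form. VEGF-B and placental growth factor bind VEGFR1 only, and VEGF-C and VEGF-D signal through VEGFR3, the product of Flt4, in lymphatic and sprouting vessels. Angiopoietin-2, released by activated endothelium, counters the stabilizing signal of the receptor Tie2, the product of Tek, while PECAM-1 and VE-cadherin, the products of Pecam1 and Cdh5, hold endothelial cells together and serve as markers of their presence. In tumors the ligands come largely from cancer cells, stroma and myeloid cells, and the receptors sit mostly on endothelium, although macrophages carry VEGFR1 as well.

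Between 14158989 and 17048062 reads per tumor lay on genes. Il6, the targeted gene, ranged from 326 to 438 reads where the label is cxC26 scr and from 56 to 86 where it is cxC26 IL6KOs1, in the direction of the labels. All 10 defining endothelial markers passed the filter on low expression, which 1 group alone could satisfy. Pecam1 had 668 to 1028 reads in the controls and 680 to 946 in the knockout tumors. Cdh5 had 401 to 779 and 415 to 554, so both groups held blood vessel RNA. Prox1, which defines lymphatic endothelium, had 0 reads in all 8 tumors, which allows up to 3 reads per tumor by counting error. In whole tumors fewer endothelial cells and less RNA per endothelial cell cannot be told apart.

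The receptors Flt1 and Kdr lie on chromosome 5 and moved differently, so the 250 bases before their RefSeq start sites (GRCm38.p6) are shown, followed by Vegfb, the ligand that rose, and Tek, a receptor that was not called. RefSeq windows were given for 7 of the 10 genes. Capitals mark GGAA or its reverse complement TTCC, the core that ETS transcription factors bind, which the endothelium uses widely. The Flt1 window is chr5:147726012-147726261, that of Kdr chr5:75978456-75978705 and that of Vegfb chr19:6987652-6987901, all on the reverse strand, and that of Tek chr4:94739039-94739288 on the forward strand. Each is written 5′ to 3′ toward the start site.
Flt1: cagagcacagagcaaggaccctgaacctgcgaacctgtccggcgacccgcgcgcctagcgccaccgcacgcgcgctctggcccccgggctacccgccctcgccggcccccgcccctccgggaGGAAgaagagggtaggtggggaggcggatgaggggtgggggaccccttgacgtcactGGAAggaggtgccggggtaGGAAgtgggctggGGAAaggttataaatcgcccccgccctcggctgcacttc
Kdr: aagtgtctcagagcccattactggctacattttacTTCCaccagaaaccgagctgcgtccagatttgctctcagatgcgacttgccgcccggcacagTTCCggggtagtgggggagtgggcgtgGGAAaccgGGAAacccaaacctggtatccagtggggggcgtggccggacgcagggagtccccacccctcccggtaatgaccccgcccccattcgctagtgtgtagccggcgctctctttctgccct
Vegfb: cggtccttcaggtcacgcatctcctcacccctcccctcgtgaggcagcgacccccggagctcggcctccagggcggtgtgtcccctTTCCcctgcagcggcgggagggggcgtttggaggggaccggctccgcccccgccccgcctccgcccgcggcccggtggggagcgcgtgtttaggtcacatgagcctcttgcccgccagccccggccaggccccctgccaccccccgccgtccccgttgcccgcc
Tek: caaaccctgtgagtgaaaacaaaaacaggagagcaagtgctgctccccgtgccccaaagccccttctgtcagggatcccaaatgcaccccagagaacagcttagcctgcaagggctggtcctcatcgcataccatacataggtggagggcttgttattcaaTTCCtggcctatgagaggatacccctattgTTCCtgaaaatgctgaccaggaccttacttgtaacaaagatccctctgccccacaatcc

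The Flt1 and Kdr windows each held the motif 4 times over both strands, that of Tek 2 times and that of Vegfb 1 time. GGAA is short, and 93.4% of 32851 promoter windows of this length held it at least once. The base composition set the windows apart more plainly, with a GC content of 70.4% for Flt1, 61.6% for Kdr, 76.4% for Vegfb and 51.2% for Tek. A motif match describes letters and is not a measured binding site.

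Expression is given as log2 CPM, the base-2 logarithm of a gene's reads relative to the size of its library, and differences as the log2 fold change of cxC26 IL6KOs1 over cxC26 scr with its standard error (SE) and a p-value adjusted over all 13262 tested genes. Of the 10 genes, Flt1 and Angpt2 were lower in the cxC26 IL6KOs1 tumors, Vegfb was higher, and Vegfa, Kdr, Flt4, Pecam1, Cdh5 and Tek were not called. Vegfc was too low to be tested. Thus 1 of 9 tested genes was higher, where 19.1% of all genes were, and 2 of 9 were lower, where 20.7% were, so the counts alone did not set these genes apart. Their median fold change was 0.00 on the log2 scale, as was that of all tested genes. The groups did not overlap for 2 of the 9, Flt1 and Angpt2, as for 37.1% of all genes.

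**Figure D1:**
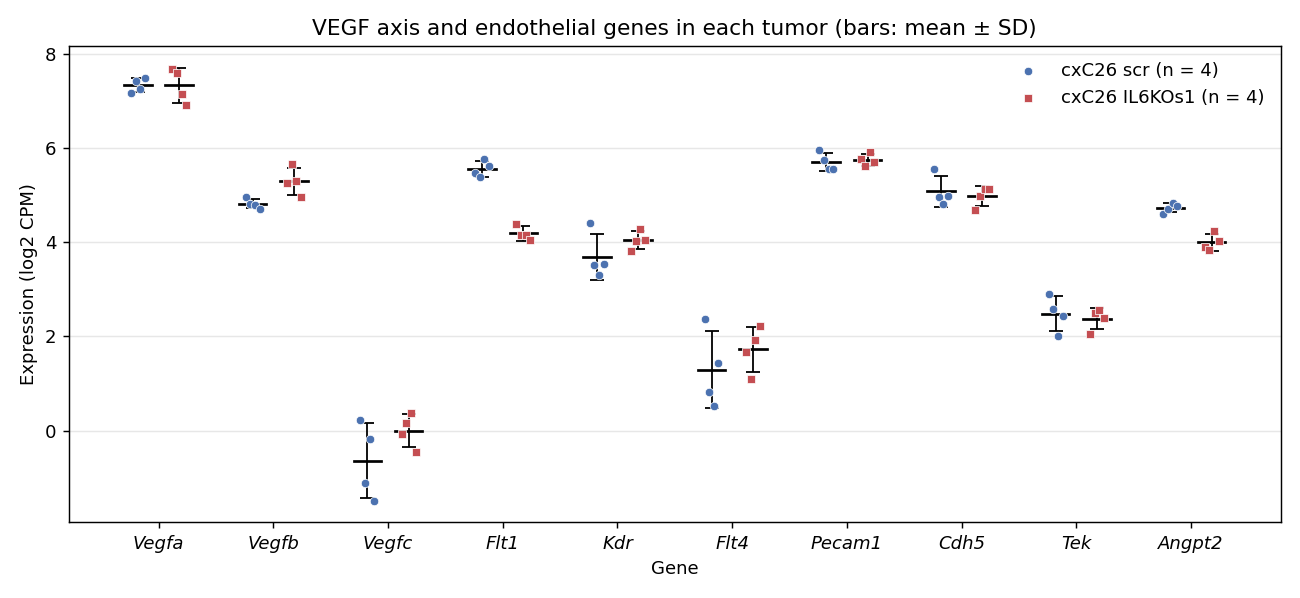
Expression (log2 CPM) of the 10 genes in each tumor, with circles for the 4 cxC26 scr tumors, squares for the 4 cxC26 IL6KOs1 tumors, and black lines for the mean ± SD. The cxC26 IL6KOs1 squares of Flt1 (4.04 to 4.39) and Angpt2 (3.83 to 4.24) lie wholly below the cxC26 scr circles (5.37 to 5.76 and 4.61 to 4.83), whereas the other genes overlap.

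Vegfa, the main ligand of vessel growth, lies on chromosome 17 from 46016993 to 46032369. It was expressed at 7.16, 7.43, 7.25 and 7.48 log2 CPM in cxC26 scr tumors 1 to 4 and at 7.68, 7.60, 7.15 and 6.90 in cxC26 IL6KOs1 tumors 1 to 4. The cxC26 IL6KOs1 tumors spread to both sides of the control range, with an SD of 0.37 against 0.15. The difference was 0.00 (SE 0.158, adjusted p = 0.993 from limma), with a 95% interval from -0.34 to 0.35. Within the cxC26 IL6KOs1 group, Vegfa stood in the same order as the mean of 15 other hypoxia-induced genes, which was 6.43, 6.21, 5.60 and 5.17 log2 CPM in tumors 1 to 4. In the cxC26 scr group that mean stayed between 5.87 and 6.12 and stood in another order than Vegfa. With 4 tumors this order is a description, and the part of hypoxia in the level of Vegfa was not tested.

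Vegfb, the ligand of VEGFR1 alone, lies on chromosome 19 from 6982473 to 6987651 on the reverse strand. It was expressed at 4.95, 4.81, 4.80 and 4.71 log2 CPM in the cxC26 scr tumors and at 5.26, 5.66, 5.29 and 4.95 in the cxC26 IL6KOs1 tumors. Of the latter, 3 lay above every control, and the fourth lay just under control tumor 1. Vegfb rose by 0.47 (SE 0.137, adjusted p = 0.0171 from limma), from 4.82 ± 0.10 to 5.29 ± 0.29 log2 CPM (SD, n = 4 each), which is 1.39-fold. The median of the 222 tested genes within 5 Mb of Vegfb was itself higher, at 0.33, as was the median of chromosome 19, at 0.33. With the chromosome median taken off, Vegfb differed by 0.14 (adjusted p = 0.472 from limma) and was no longer called. Without cxC26 scr tumor 4 its adjusted p was 0.0517 from limma, with a log2 fold change of 0.44.

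Vegfc, a ligand of VEGFR3 on chromosome 8 from 54077606 to 54187096, was read 19, 7, 12 and 5 times in the cxC26 scr tumors and 15, 15, 20 and 10 times in the cxC26 IL6KOs1 tumors. These 103 reads in all were below the filter. In a limma fit over all 27179 genes Vegfc differed by 0.64 (SE 0.503, adjusted p = 0.529), with a 95% interval from -0.50 to 1.78, so a 2-fold rise could not be told from no change at this depth.

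Flt1 had the largest fold change of the 9 tested genes. The gene, on chromosome 5 from 147561604 to 147726011 on the reverse strand, gave 743, 670, 771 and 752 reads in the cxC26 scr group and 341, 247, 278 and 238 in the cxC26 IL6KOs1 tumors. On the log2 CPM scale these were 5.48, 5.37, 5.76 and 5.61 against 4.39, 4.16, 4.14 and 4.04. Every cxC26 IL6KOs1 tumor lay below every control, and the gap between the groups was wider than the range within either. Mean expression was 5.56 ± 0.17 in the cxC26 scr tumors and 4.18 ± 0.15 in the cxC26 IL6KOs1 tumors (SD, n = 4 each), a log2 fold change of -1.37 (SE 0.116, adjusted p = 8.41e-06 from limma). Expression in the knockout tumors was thus 38.65% of the control. The deposited values are per gene, so reads of the membrane receptor and of its soluble decoy form were counted together.

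Flt1 lies in a stretch of chromosome 5 that was lower as a whole. The median of the 80 tested genes within 5 Mb was -0.47, against -0.24 over the chromosome. With the neighbour median taken off, an alternative chosen after seeing the data, Flt1 still differed by -0.90 (adjusted p = 0.000153 from limma). Leaving out any 1 tumor kept its log2 fold change between -1.44 and -1.30.

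Kdr, the main signalling receptor for VEGF-A, lies on the same chromosome from 75932827 to 75978458. Its expression was 4.40, 3.51, 3.30 and 3.54 log2 CPM in the cxC26 scr tumors and 3.81, 4.02, 4.28 and 4.05 in the cxC26 IL6KOs1 tumors. Control tumor 1 was the highest of all 8, and the other 3 controls lay below every knockout tumor. The difference was 0.35 (SE 0.214, adjusted p = 0.211 from limma), with a 95% interval from -0.11 to 0.82. Without control tumor 1 it was 0.59 (SE 0.142, adjusted p = 0.00906 from limma), and Kdr was then called higher. With the chromosome median taken off, Kdr differed by 0.60 (adjusted p = 0.0521 from limma) and was not called. The 34 tested genes within 5 Mb had a median of -0.36. With that median taken off, the alternative chosen after seeing the data, Kdr differed by 0.71 (adjusted p = 0.0252 from limma).

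Flt4, the receptor of VEGF-C and VEGF-D, lies on chromosome 11 from 49609263 to 49652739. It was low, with 86, 28, 20 and 41 reads in the cxC26 scr group and 51, 29, 59 and 67 in the cxC26 IL6KOs1 group. Control tumor 1 was again the highest of the 8. The log2 fold change was 0.44 (SE 0.387, adjusted p = 0.395 from limma), and its 95% interval from -0.41 to 1.28 spans more than a 2-fold rise. Without control tumor 1 the value was 0.80 (adjusted p = 0.0774 from limma).

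The 2 junction genes, used here as markers of endothelium, did not differ beyond the spread between tumors. Which cells carried their reads was not tested, and all 10 macrophage and monocyte markers rose, with a median log2 fold change of 1.11. Pecam1, on chromosome 11 from 106654217 to 106750628, stood at 5.95, 5.75, 5.55 and 5.55 log2 CPM in the cxC26 scr tumors and at 5.77, 5.62, 5.91 and 5.70 in the cxC26 IL6KOs1 tumors. Its groups overlapped almost fully, with a log2 fold change of 0.05 (SE 0.108, adjusted p = 0.754 from limma) and a 95% interval from -0.19 to 0.28. Cdh5, on chromosome 8 from 104101625 to 104144511, stood at 5.55, 4.97, 4.82 and 4.97 against 4.68, 4.97, 5.14 and 5.14 log2 CPM. Apart from control tumor 1, its values also lay in one range, and the log2 fold change was -0.10 (SE 0.161, adjusted p = 0.666 from limma), with a 95% interval from -0.45 to 0.26. The intervals of both genes stop short of the fold changes of Flt1 and Angpt2. In the annotation Gm29682 lies antisense to Cdh5, and reads of the pair cannot be told apart without strand.

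Angpt2, the vessel-destabilizing ligand of Tie2, lies on chromosome 8 from 18690263 to 18741562 on the reverse strand. Its reads numbered 406, 421, 403 and 421 in the cxC26 scr group and 242, 196, 297 and 237 in the cxC26 IL6KOs1 tumors. In log2 CPM these were 4.61, 4.70, 4.83 and 4.78 against 3.90, 3.83, 4.24 and 4.04. All 4 knockout tumors lay below all 4 controls. Mean expression fell from 4.73 ± 0.10 to 4.00 ± 0.18 (SD, n = 4 each), a log2 fold change of -0.73 (SE 0.118, adjusted p = 0.000644 from limma), and stood at 60.38% of the control. Its neighbours within 5 Mb had a median of -0.04, so the region did not move with it. Mcph1 overlaps Angpt2 on the opposite strand and was not called (0.20, adjusted p = 0.182 from limma).

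Tek, the receptor of Angpt2, lies on chromosome 4 from 94739289 to 94874976. It was expressed at 2.90, 2.58, 2.01 and 2.44 log2 CPM in the cxC26 scr tumors and at 2.05, 2.50, 2.55 and 2.38 in the cxC26 IL6KOs1 tumors. The groups overlapped, and the difference was -0.11 (SE 0.212, adjusted p = 0.709 from limma), with a 95% interval from -0.57 to 0.35. The fall of the ligand thus came without a called change of the receptor. The difference between the fold changes of ligand and receptor is given by their ratio.

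Ratios between 2 genes within a tumor compare genes in the same mixture of cells, and 5 pairs were examined, chosen with earlier results of these data known. These ratios are of CPM and not per length of exon, so a value of 0 does not mean equal levels of the 2 genes. Flt1 over Kdr, the VEGFR1 gene over the VEGFR2 gene, had log2 ratios of 1.08, 1.86, 2.46 and 2.08 in the cxC26 scr tumors. In the cxC26 IL6KOs1 tumors they were 0.59, 0.13, -0.14 and -0.01. The mean fell from 1.87 ± 0.58 to 0.14 ± 0.32 (SD, n = 4 each), a difference of -1.73 with no overlap (two-sided exact permutation test, p = 0.0286, the smallest that 4 against 4 can give, and 0.0477 adjusted over the 5 pairs). Flt1 over Cdh5 and Flt1 over Pecam1 differed by -1.28 and -1.42, also with no overlap and with the same exact permutation p. These 3 ratios share Flt1 and are not independent of each other or of its fold change. The adjusted value of 0.0477 rests on all 3 having the smallest p, and so on Flt1 being counted in each. It therefore adds no support beyond the fold change of Flt1.

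Angpt2 over Tek differed by -0.62 between the groups, and the knockout tumor of highest ratio (1.85) lay above control tumor 1 (1.71). Vegfb over Vegfa differed by 0.47, and knockout tumor 1 (-2.42) lay inside the control range. Both had an exact permutation p of 0.0571, raw and adjusted over the 5 pairs, so neither shift of a ratio passed the threshold.

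**Figure D2:**
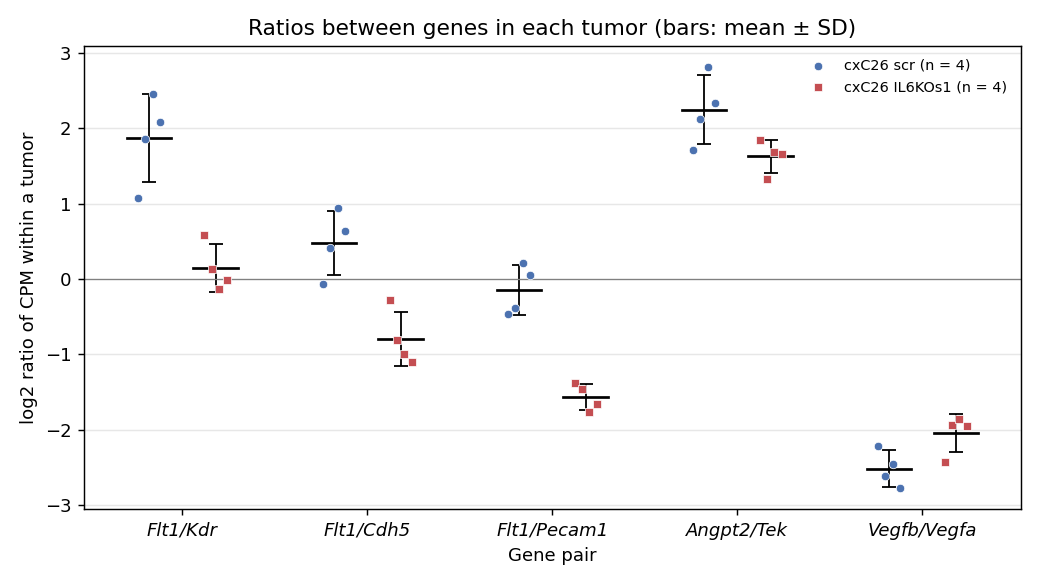
Log2 ratio of CPM between 2 genes within each tumor, with circles for cxC26 scr, squares for cxC26 IL6KOs1 (n = 4 each) and black lines for the mean ± SD. The 3 ratios with Flt1 separate the groups, and those of Angpt2 to Tek and Vegfb to Vegfa overlap.

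Levels of different genes can be compared only per length, and CPM per kilobase of exon (RPKM) were used as values with no test. In the cxC26 scr tumors Vegfa was the highest at 37.7 ± 3.9 RPKM, followed by Vegfb at 17.6 ± 1.3 (SD, n = 4 each). Pecam1 (8.40 ± 1.12), Cdh5 (8.18 ± 1.99) and Angpt2 (7.18 ± 0.47) came next and lay within their spread of each other. Flt1 stood at 3.50 ± 0.41, above Kdr (1.49 ± 0.57) and Tek (1.21 ± 0.30), which did not differ beyond their spread. Flt4 (0.333 ± 0.206) and Vegfc (0.280 ± 0.154) were the lowest.

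In the cxC26 IL6KOs1 tumors the order of the means changed only between Flt1 and Kdr. Flt1, at 1.35 ± 0.14 RPKM, stood below Kdr at 1.83 ± 0.25 on average, beside Tek at 1.10 ± 0.16. Angpt2 kept its place at 4.35 ± 0.56, now apart from Cdh5 (7.56 ± 1.08) and Pecam1 (8.65 ± 0.75) by more than their spread. The ligands kept their places, with Vegfa at 38.6 ± 9.6 and Vegfb at 24.8 ± 5.1. Exon lengths joined all annotated transcripts of a gene, so a gene with long alternative exons, such as Flt1, has a lower RPKM than its main transcript would give.

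Other genes of the VEGF and angiopoietin pathway moved in both directions. Of 12 listed, 10 were tested, 3 were higher and 2 lower, with a median log2 fold change of -0.05. With 19.1% of all genes higher and 20.7% lower, these counts did not set the list apart. Pgf, which encodes placental growth factor, another ligand of VEGFR1, was at 3.72, 4.18, 3.44 and 4.08 log2 CPM in the cxC26 scr tumors and at 3.24, 2.93, 2.87 and 2.22 in the cxC26 IL6KOs1 tumors. Pgf was lower in all 4 knockout tumors, with a log2 fold change of -1.04 (SE 0.228, adjusted p = 0.00396 from limma). Vegfd, a ligand of VEGFR3, rose by 0.83 (adjusted p = 0.00592 from limma), with overlap. Thus the VEGFR1 ligands Vegfb and Pgf were both called, in opposite directions. The call of Vegfb was lost with its chromosome median taken off, as given above.

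Among the co-receptors, Nrp2, which joins VEGFR3 in binding VEGF-C, rose by 0.50 (SE 0.0949, adjusted p = 0.00169 from limma), from 7.19 to 7.38 log2 CPM in the controls to 7.64 to 8.01 in the knockout tumors. Nrp1, which joins VEGFR2 in binding VEGF-A, differed by 0.06 (adjusted p = 0.776 from limma), and the semaphorin receptor Plxnd1 by -0.20 (adjusted p = 0.101). The other called genes of the list are neither VEGF nor Tie2 ligands or receptors. Cd248, a surface glycoprotein of pericytes and fibroblasts, rose by 1.16 (adjusted p = 0.00112 from limma), and Angptl4, a secreted inhibitor of lipoprotein lipase, differed by -0.80 (adjusted p = 0.00870 from limma).

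Of the 26 other endothelial markers, all tested, 2 were higher and 5 lower by limma at the adjusted threshold and 19 were not called, and their median log2 fold change was 0.01. Over all genes 19.1% were higher and 20.7% lower, so the count of lower markers was near that share. The lower genes were Vwf (-0.78), the blood clotting factor of endothelial granules that also store angiopoietin-2, Nos3 (-0.55), the endothelial nitric oxide synthase, S1pr1 (-0.85), the receptor of sphingosine 1-phosphate, and the transcription factors Ets1 (-0.34) and Tal1 (-1.95). The higher genes were Fli1 (0.49), an ETS transcription factor, and the adhesion molecule Icam2 (0.68). Ets1, S1pr1, Tal1, Fli1 and Icam2 are also expressed in blood cells. Plvap, of the diaphragm of fenestrated endothelium, differed by 0.00, and Eng, a co-receptor of TGF-β, by 0.36, without a call. Vwf was at 2.91, 2.50, 2.59 and 2.69 log2 CPM in the controls and at 1.61, 1.89, 2.05 and 2.01 in the knockout tumors. It thus fell without overlap, as Flt1 and Angpt2 did, beside Pecam1 and Cdh5, whose groups overlapped. Among the 26 markers the groups did not overlap for 7, against 37.1% of all genes. Fli1 and Icam2 were among these 7, both higher.

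Control tumor 1 stood apart in endothelial genes. It was the highest of its group in 22 of the 26 other markers and in 6 of the 9 tested genes of interest, and its mean over the 26 markers was 3.57 log2 CPM, against 2.90 to 3.01 in the other controls and 2.88 to 3.12 in the knockout tumors. Without it 4 of the 26 markers were higher (Fli1, Icam2, Eng and Egfl7, the last named after its value was seen) and 4 lower, with Nos3 no longer called, and the median was 0.22. Flt1 (-1.40) and Angpt2 (-0.77) were lower without it as well, and Vegfb (0.52) was higher. The call of Kdr alone among the 9 genes changed when this tumor was left out.

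**Figure D3:**
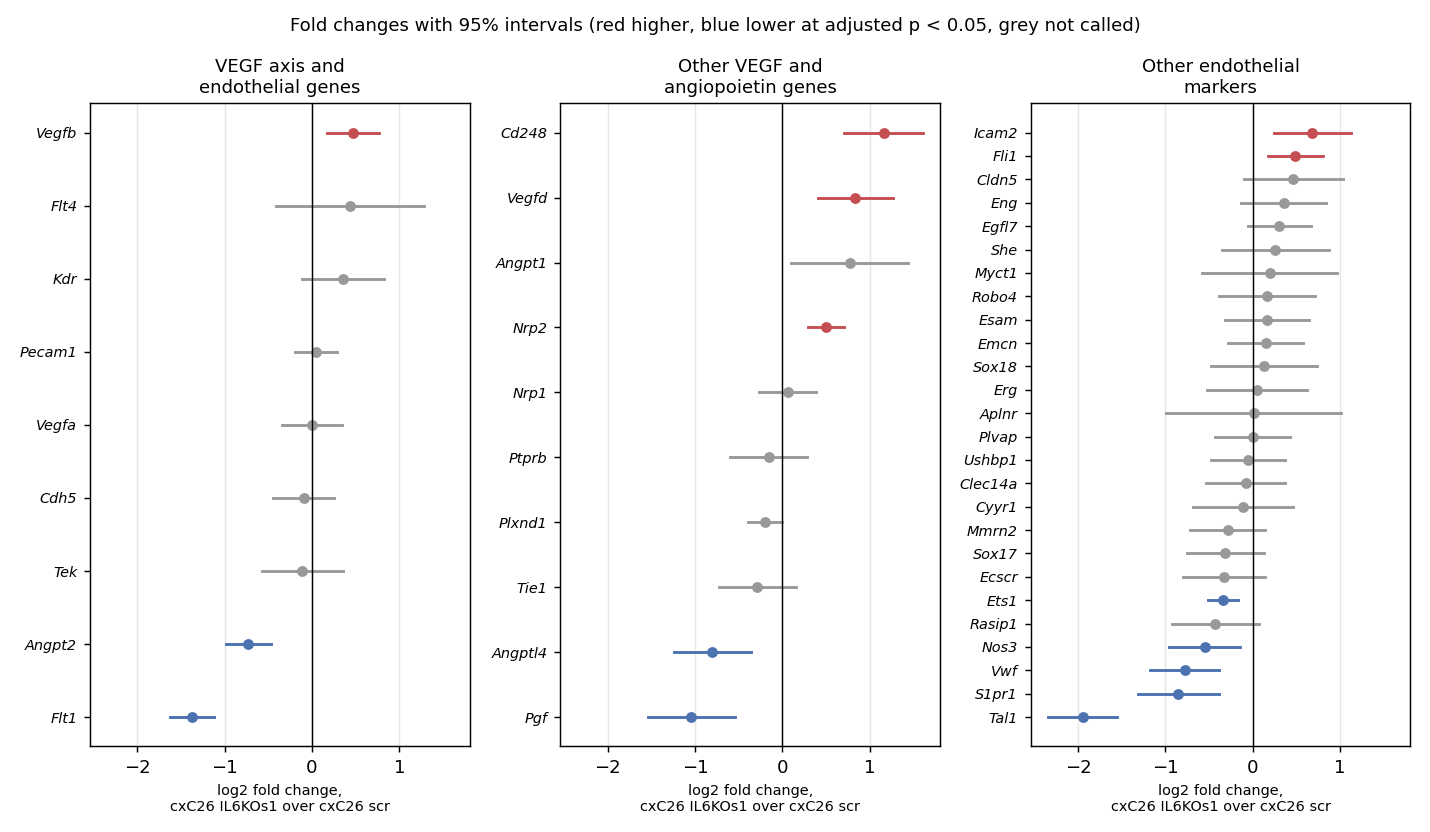
Log2 fold change of cxC26 IL6KOs1 over cxC26 scr with 95% intervals (x axis) for the 9 tested genes of interest, 10 other pathway genes and 26 other endothelial markers, with red for higher, blue for lower and grey for not called at an adjusted p of 0.05. Flt1 (-1.37) and Angpt2 (-0.73) lie left of 0 while Pecam1 (0.05) and Cdh5 (-0.10) lie beside it, and 19 of the 26 other markers are grey.

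Of the sprouting and Notch-regulated endothelial genes 3 of 9 tested were higher and 3 lower, against 19.1% and 20.7% of all genes, with a median of 0.36. Esm1, a proteoglycan of sprouting tip cells that binds VEGF-A, rose by 0.98 (adjusted p = 0.000162 from limma), and Apln, the apelin ligand of tip cells, rose by 0.88 (adjusted p = 0.0275 from limma). In the controls Esm1 averaged 8.81 log2 CPM over 2097 bases of exon, whereas Pecam1 averaged 5.70 over 6228. Jag1, a Notch ligand, and Unc5b, a netrin receptor, were lower by -0.88 and -0.72. Genes of leukocyte adhesion were called in 2 of 4 tested, both higher (19.1% of all genes were), namely Vcam1 (0.80, adjusted p = 4.69e-05 from limma) and Icam1 (1.06, adjusted p = 0.0198 from limma). Sele and Selp, the endothelial selectins, differed by -0.20 and 0.01 without a call. Cells other than endothelium also express several of these genes, and which cells carried the differences was not tested.

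Endogenous inhibitors of vessel growth also moved both ways, with 2 of 10 higher and 2 lower, against 19.1% and 20.7% of all genes, and a median of 0.29. Without control tumor 1 the counts were 4 higher and 2 lower. Thbs1, encoding thrombospondin-1, rose by 1.45 (SE 0.164, adjusted p = 6.41e-05 from limma), from 7.51 to 8.30 log2 CPM in the controls to 9.08 to 9.64 in the knockout tumors. Sema3a, a semaphorin that binds neuropilin-1, was lower, with -0.75 (adjusted p = 0.000603 from limma). Thbs2 and Adamts1 differed by -0.41 and 0.25 without a call. Of 7 lymphatic markers only Pdpn and Lyve1 passed the filter, with Pdpn lower at -0.49 and Lyve1 not called at 0.51. Without control tumor 1 Lyve1 was called higher, at 0.72 (adjusted p = 0.0184 from limma). Since Prox1 had 0 reads in all 8 tumors, Lyve1 is not read here as a measure of lymphatic vessels. Which cells carried it was not tested. Pdpn is also made by tumor and stromal cells.

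Markers of other cells were measured beside these genes, and their counts stand against 19.1% of all genes higher and 20.7% lower. All 10 macrophage and monocyte markers rose by limma (9 with voom weights, and 8 without control tumor 1), with a median of 1.11, and their mean was 5.95 to 6.17 log2 CPM in the controls and 6.84 to 7.60 in the knockout tumors, with none at 0 reads. Knockout tumor 1 was the highest of its group in 8 of the 10. Without that tumor Flt1 and Angpt2 differed by -1.44 and -0.69, both called by limma. The remaining knockout tumors still had macrophage means of 6.84 to 7.09, above every control. Leaving that tumor out therefore does not separate macrophage content from the group. Pericyte and smooth muscle markers gave 0 higher (2 at an unadjusted p under 0.05, and 0 with voom weights) and 1 lower of 11 tested by limma, the latter Pdgfrb (-0.77), the receptor of pericyte recruitment. Without control tumor 1 they gave 3 higher and 1 lower. Of 8 tested platelet and red cell markers, 0 were called by limma in either direction, with 0 at an unadjusted p under 0.05 and 0 with voom weights. Of the 15 hypoxia-induced genes 0 were higher and 2 lower, Ldha (-0.53) among them, no more than the share over all genes. Their median was -0.25. The part of these cells and of hypoxia in the results for Flt1, Angpt2 and Vegfb was not tested.

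**Figure D4:**
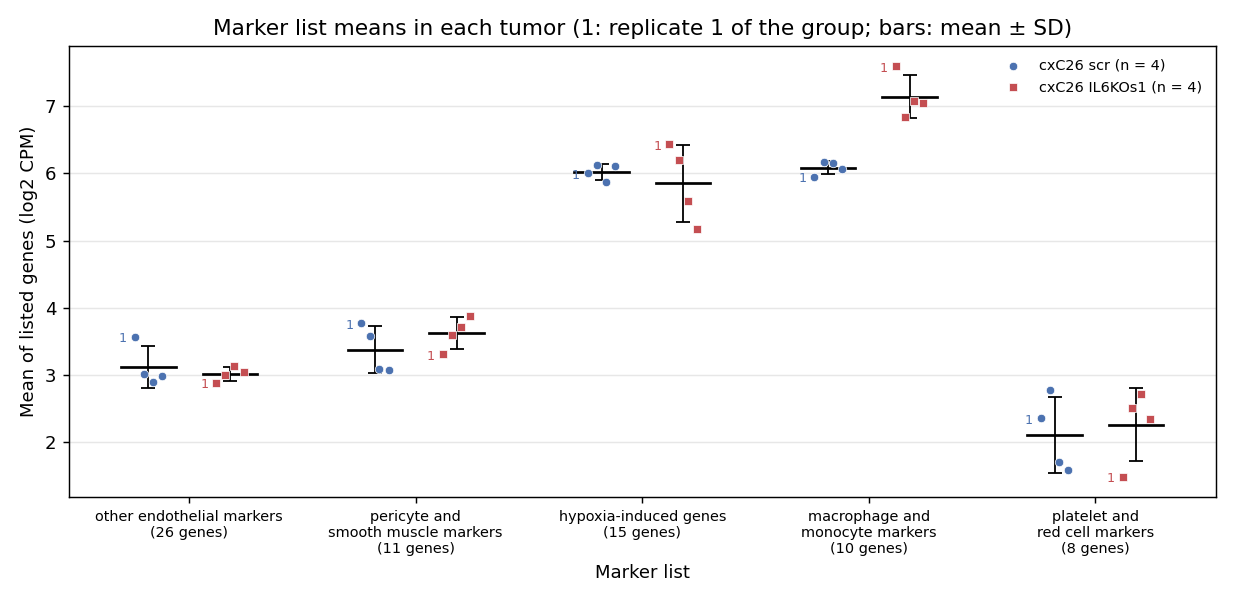
Mean log2 CPM of the tested genes of 5 marker lists in each tumor, with circles for cxC26 scr, squares for cxC26 IL6KOs1 (n = 4 each), black lines for the mean ± SD, and the digit 1 beside replicate 1 of each group. The macrophage means separate the groups (5.95 to 6.17 against 6.84 to 7.60), and control tumor 1 lies above the other tumors in the endothelial list, at 3.57.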

How the data were processed

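RNA of 8 mouse tumors, 4 cxC26 scr and 4 cxC26 IL6KOs1, grouped by their titles, was analysed. Libraries were made from poly(A) RNA with a kit that does not mark strand. The authors used Trimmomatic, Hisat2 on mm10 and featureCounts to obtain counts per gene, and deposited log2 CPM from limma-voom. Their annotation, strand setting and most versions are not given in the sources used here. Voom adds 0.5 reads to each gene, and whole reads (tolerance 0.01) were recovered from each column's lowest value. The median total was 15384974 reads per tumor. This limits the precision of low genes such as Vegfc and Flt4.

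Genes reaching 1 CPM in 4 or more tumors were fitted with limma 3.58.1 in R 4.3.3 (lmFit, eBayes with trend) and no covariate, with a threshold of 0.05 on Benjamini-Hochberg adjusted p-values. Because the values are log2, count tests were not run. Ratios were compared by two-sided exact permutation tests. P-values measure only the spread between these tumors. The method was tested on simulated data with unrelated genes, the same spread setting for every gene and few changed genes. That setting is simpler than these tumors, so it does not vouch for single calls. The genes and the 10 lists were chosen with earlier results of these data known. Named beside the 10 genes were up to 4 genes of highest expression per list, every called gene of the pathway and endothelial lists, and Il6. Positions are from GENCODE M21 on GRCm38, and promoters from RefSeq GRCm38.p6. Alternatives were other filters and scalings, voom weights, a pseudocount of 1 CPM, no trend, a 2-fold threshold, a block for the replicate number, single tumors left out, and removal of chromosome or neighbour medians.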

Additional observations from a re-analysis of the deposited data

Results flagged for a closer look

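In 6 of 126 groups of 4 tumors examined, 1 tumor lay far from the other 3, where chance alone gives about 6.3. Vegfb over Vegfa was -2.42 on the log2 scale in cxC26 IL6KOs1 tumor 1, against -1.95 to -1.86 in the other 3. Plvap was 5.99 log2 CPM in cxC26 scr tumor 1, against 4.98 to 5.12. In the same tumor Fli1 was 2.73, below 2.87 to 2.88, and Pgk1 was 9.71, below 9.93 to 9.94. Il6 was 2.46 in cxC26 IL6KOs1 tumor 3, against 1.99 to 2.04, still below every cxC26 scr tumor. Lyz2 was 10.3 in cxC26 IL6KOs1 tumor 1, against 9.33 to 9.40.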

How the results depend on the processing

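Flt1 and Angpt2 kept their direction and stayed below the threshold in all 19 alternatives run for each gene, with adjusted p from limma between 4.13e-06 and 0.000154 for Flt1 and between 0.000560 and 0.00336 for Angpt2. Vegfb kept its direction in its 19 but lost its call in 3, with both medians removed and without cxC26 scr tumor 4 (adjusted p between 0.00429 and 0.481 from limma over all 19). Kdr gained a call in 2. With the chromosome median removed, 0 of the 9 tested genes were higher. Of the 10 other pathway genes 3 were then higher and 3 lower, and of the 26 other endothelial markers 2 were higher and 4 lower. Over all tested genes 2107 were higher and 2051 lower. Cd248 lies on chromosome 19 (median 0.33), and Nos3 and Sema3a lie on chromosome 5 (median -0.24). A 2-fold threshold was applied to counts only and is not among the 19. With it 0 of the 9 were higher and 1 lower, namely Flt1, since Angpt2 differed by less than 2-fold. At this threshold 1 pathway gene was higher and 1 lower, and 0 other endothelial markers were higher and 1 lower. Over all tested genes 829 were higher and 521 lower. With the filter set at a mean of 3 log2 CPM, 1 other endothelial marker was higher and 2 lower, since 11 of the 26 were tested. After quantile normalization 0 of these markers were higher, and the cause was not tested. Leaving out 1 tumor at a time gave 0 to 2 higher among the 9 genes and 1 to 4 among the other endothelial markers, with 1 in place of 2 without cxC26 scr tumor 3 or without cxC26 IL6KOs1 tumor 3.

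Tumors with the same replicate number came from different mice, and their deviations from the group means were not related (r between -0.0593 and 0.057). With the replicate number as a block, 2477 genes were higher and 2688 lower, and among the 9 genes 1 was higher and 2 lower, as without it. Depth limits Vegfc, with 5 to 20 reads per tumor, and Flt4, with 20 to 86.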
